A study of Mus musculus with 6 samples.

Results

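Peroxins, the proteins that build the peroxisome, and the enzymes that work inside it were followed in liver RNA of mice with and without injected TFEB. The set holds every gene whose single symbol in the array annotation begins with Pex and a digit, plus a fixed list of 27 peroxisomal enzymes and membrane proteins. Of these, 12 peroxins and 25 enzymes were measured, together 37 of 12393 genes tested; the other 2 genes of the enzyme list were not analysed here. The rule uses gene names and no measured value, though the members were chosen with earlier results of these data known. The comparison asks which peroxisomal transcripts differ between livers with and without injection.

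All 6 mice were labelled Ppara KO, on a C57 background, and were 1 month old, so both groups lacked PPAR-alpha according to the labels. The TFEB-injected group comprised 3 mice whose liver had received an adenoviral vector, and the not-injected group comprised 3 mice with no vector. Each array was 1 mouse, and the labels call the arrays biological replicates. The labels name neither the promoter of the vector nor the species of its TFEB, and with no empty-vector group the effects of injection, vector and TFEB cannot be told apart. Per-gene values are log2 expression levels, on which a difference of 1 is a doubling, from the authors' RMA processing. Changes are injected minus not-injected, and "rose" and "fell" are used where limma's Benjamini-Hochberg adjusted p over all genes was under 0.05. In whole liver, fewer cells of a type and less RNA per cell cannot be told apart.

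The peroxisome is a small organelle bounded by a single membrane that has no DNA of its own, so all of its proteins are imported. Peroxins insert its membrane proteins, carry matrix enzymes from the cytosol to a docking site, recycle the carriers and drive the organelle's growth and division. In hepatocytes its enzymes shorten very long, branched and dicarboxylic fatty acids and bile acid precursors by beta-oxidation, remove a methyl-blocked carbon by alpha-oxidation, start ether lipid synthesis and oxidise urate, glycolate and some amino acids. In rodents PPAR-alpha is known for switching on many genes of the peroxisomal beta-oxidation pathway and for enlarging the peroxisome population.

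The arrays carried the tissue they were labelled with. The 7 measured hepatocyte markers lay between 12.81 and 15.03 on the log2 scale, and 5 markers of kidney tubule, another peroxisome-rich tissue, between 3.64 and 7.98. Over all genes, pairs of not-injected arrays correlated at 0.998 to 0.999, pairs of injected arrays at 0.995 to 0.998 and mixed pairs at 0.989 to 0.993. Macrophage and Kupffer cell markers rose in 9 of 12 cases and fell in 0, and their summed linear level was 8472 to 8751 in not-injected and 11098 to 13508 in injected livers. The summed level of the hepatocyte markers was 157329 to 158246 and 154033 to 156906, with 1 of 7 risen and 0 fallen, and none of the markers of either list was at the bottom of the array's range. Endothelial markers rose in 2 of 6 cases and fell in 0, with sums of 2839 to 3033 in not-injected and 3466 to 4117 in injected livers. Of 7 stellate cell markers 2 rose and 2 fell, with sums of 5884 to 6033 and 5710 to 5906. Whether these marker changes reflect cell numbers, and what part they have in the changes of peroxisomal genes, was not tested.

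Peroxisomal enzyme genes went in both directions, while a single peroxin gene passed the threshold. Of the 25 enzymes, 4 rose and 7 fell, and of the 12 peroxins 0 rose and 1 fell. Over all genes, 17.9% passed the threshold, 9.99% higher and 7.92% lower. The share was 44.0% for the enzymes and 8.33% for the peroxins. The probe sets of 33 of the 37 members had a mean signal above the median of all genes. Among all genes above that median 27.6% passed, against 11 of 22 enzymes and 1 of 11 peroxins above it. The median log2 change was 0.00 for the enzymes, -0.04 for the peroxins and -0.01 for all genes, and the median size of the change was 0.19, 0.08 and 0.10. With the arrays centred on their medians, calls over all genes turned from 55.8% higher to 43.9% higher. The same centring gave 4 enzymes higher and 10 lower, and 0 peroxins higher and 1 lower.

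**Figure D1:**
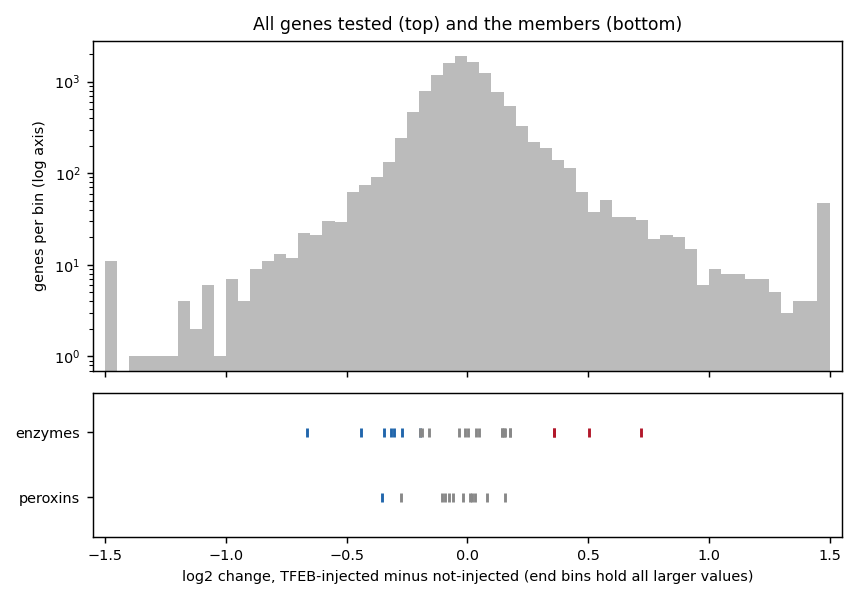
The upper panel counts all 12393 genes by log2 change (injected minus not-injected, bins of 0.05, log axis for the counts, with larger changes collected in the end bins) and the lower panel marks each member, red where it rose, blue where it fell and grey where it did not pass the threshold. Enzymes spread from -0.67 to 0.72, while peroxins lie between -0.35 and 0.16, near the bulk of all genes.

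The stretches before the start sites of the members with the largest rises and falls are shown with that of Gnpat, because TFEB is known for binding CACGTG and PPAR-alpha for binding paired AGGTCA. They are the 250 bases before the start site in RefSeq's annotation (build GRCm38.p6), written along the gene's own strand, and capitals mark CACGTG or AGGTCA on either strand. They lie at chr7:28825088-28825337, plus strand for Ech1, at chr9:119157094-119157343, minus strand for Acaa1b, at chr14:8259020-8259269, minus strand for Acox2, at chr2:134554353-134554602, minus strand for Hao1 and at chr8:124862783-124863032, plus strand for Gnpat.
Ech1: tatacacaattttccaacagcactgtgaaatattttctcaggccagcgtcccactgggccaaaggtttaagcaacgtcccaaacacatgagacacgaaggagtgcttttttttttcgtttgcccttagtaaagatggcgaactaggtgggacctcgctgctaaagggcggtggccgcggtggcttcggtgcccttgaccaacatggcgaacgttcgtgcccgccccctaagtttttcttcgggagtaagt
Acaa1b: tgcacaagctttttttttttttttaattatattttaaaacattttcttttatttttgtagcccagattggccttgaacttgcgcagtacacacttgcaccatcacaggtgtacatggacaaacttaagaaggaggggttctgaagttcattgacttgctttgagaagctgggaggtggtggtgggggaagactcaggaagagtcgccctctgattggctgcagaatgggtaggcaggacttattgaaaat
Acox2: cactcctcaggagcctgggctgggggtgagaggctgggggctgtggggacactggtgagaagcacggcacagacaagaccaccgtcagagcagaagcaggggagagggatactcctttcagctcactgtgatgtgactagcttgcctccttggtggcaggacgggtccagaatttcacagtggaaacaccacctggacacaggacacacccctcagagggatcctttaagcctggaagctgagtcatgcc
Hao1: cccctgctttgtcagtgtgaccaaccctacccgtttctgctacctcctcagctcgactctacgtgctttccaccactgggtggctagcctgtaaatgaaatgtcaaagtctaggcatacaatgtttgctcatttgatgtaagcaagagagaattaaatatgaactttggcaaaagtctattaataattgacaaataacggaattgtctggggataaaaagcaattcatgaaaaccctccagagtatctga
Gnpat: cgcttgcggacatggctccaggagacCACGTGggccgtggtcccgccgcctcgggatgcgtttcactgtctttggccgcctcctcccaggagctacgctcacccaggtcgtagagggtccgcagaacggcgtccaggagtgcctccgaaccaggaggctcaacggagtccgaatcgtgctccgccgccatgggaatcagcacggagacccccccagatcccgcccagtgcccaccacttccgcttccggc

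Of the 37 members, 30 had such a stretch in the table. CACGTG was in 1 of these 30, that of Gnpat, compared with 6.05% of the stretches of all genes. The longer TCACGTGA, which contains CACGTG, and the direct repeat of AGGTCA with 1 base between (DR1), searched on both strands like the others, were in 0 of 30 (0.803% and 0.037% of all genes), and a single AGGTCA, in 13.8% of all, was in 1, that of Scp2. None of the members that rose or fell and had a stretch held any of the 4 motifs. The stretches of Ech1, Acaa1b, Acox2 and Hao1 printed here are therefore without capitals, and these letter searches say nothing of sites elsewhere in the genes. Given the low shares over all genes, above all of TCACGTGA and the direct repeat, absence from so few stretches says little about members that rose or fell.

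In the beta-oxidation spiral, which removes carbon pairs from the acyl chain, 1 of 7 genes rose and 2 fell. Over all genes 17.9% passed, 9.99% higher and 7.92% lower. Of the 7, 6 lay above the median level of all genes, where 27.6% passed. Acox2 encodes an acyl-CoA oxidase that takes bile acid precursors into the spiral. Its level was 11.53, 11.54 and 11.52 in the not-injected mice and 10.86 in each of the 3 injected mice. The groups lay far apart with almost no spread inside either (SD 0.0096 and 0.0018), and Acox2 fell by 0.67 ± 0.04 (SE), or 1.59-fold lower (limma, adjusted p = 1.39e-04). By p-value it ranked 42 among all 12393 genes. Acox3, a further branched-chain oxidase, gave a low signal of 5.97 ± 0.07 (SD, n = 3) and 6.01 ± 0.08.

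Ehhadh encodes the L-bifunctional protein, a classical PPAR-alpha target that hydrates and dehydrogenates straight and dicarboxylic chains. It read 11.16, 11.08 and 11.17 without and 10.99, 10.95 and 10.88 with injection. The groups did not overlap, and Ehhadh fell by 0.20 ± 0.05 (SE; limma, adjusted p = 0.0379). Leaving out TFEB-injected replicate 2 or 3, or any not-injected array, ended this call (adjusted p up to 0.126). Hsd17b4, for the D-bifunctional protein that serves branched chains and bile acid precursors, gave 11.18, 11.16 and 11.26 against 11.42, 11.36 and 11.33. Its change of 0.18 ± 0.05 had the opposite sign and lay just short of the threshold (limma, adjusted p = 0.0517); a second probe set gave 0.12. Without TFEB-injected replicate 3 it passed (adjusted p = 0.0464).

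The last step is thiolysis, for which mice have a pair of near-identical genes, Acaa1a and Acaa1b. The Acaa1b probe set gave 13.03, 13.06 and 13.07 in not-injected and 13.57, 13.56 and 13.55 in injected livers. Every injected array was above every control, and Acaa1b rose 1.42-fold (0.50 ± 0.04 SE; limma, adjusted p = 3.74e-04). The Acaa1a probe set gave 9.24, 9.29 and 9.22 against 9.36, 9.37 and 9.48. These groups did not overlap either, but the change of 0.15 ± 0.05 did not pass (adjusted p = 0.0911; 95% confidence interval 0.03 to 0.27). Both Acaa1a probe sets are of the kind that can detect related transcripts. The array also has 2 probe sets assigned to both genes, with changes of 0.50 ± 0.05 and 0.42 ± 0.05 (adjusted p = 5.95e-04 and 0.00136), so how the rise divides between the paralogs is uncertain.

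Scp2 encodes both a thiolase for branched chains and a sterol carrier protein. Its lead probe set read 14.23, 14.26 and 14.23 without and 14.31, 14.27 and 14.25 with injection. The groups overlapped, with a change of 0.04 ± 0.04 (limma, adjusted p = 0.611; 95% confidence interval -0.06 to 0.14). Of 3 further Scp2 probe sets, all with negative estimates, 1 fell, from 10.91 ± 0.10 (SD, n = 3) to 10.60 ± 0.10 (-0.32 ± 0.07 SE, adjusted p = 0.0261 over all probe sets). Another, about as bright as the lead, read 14.29 ± 0.02 without and 14.22 ± 0.02 with injection. Its groups did not overlap, and its change of -0.07 ± 0.05 did not pass (limma, adjusted p = 0.358 over all probe sets). The sign for Scp2 thus depended on the probe set.

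**Figure D2:**
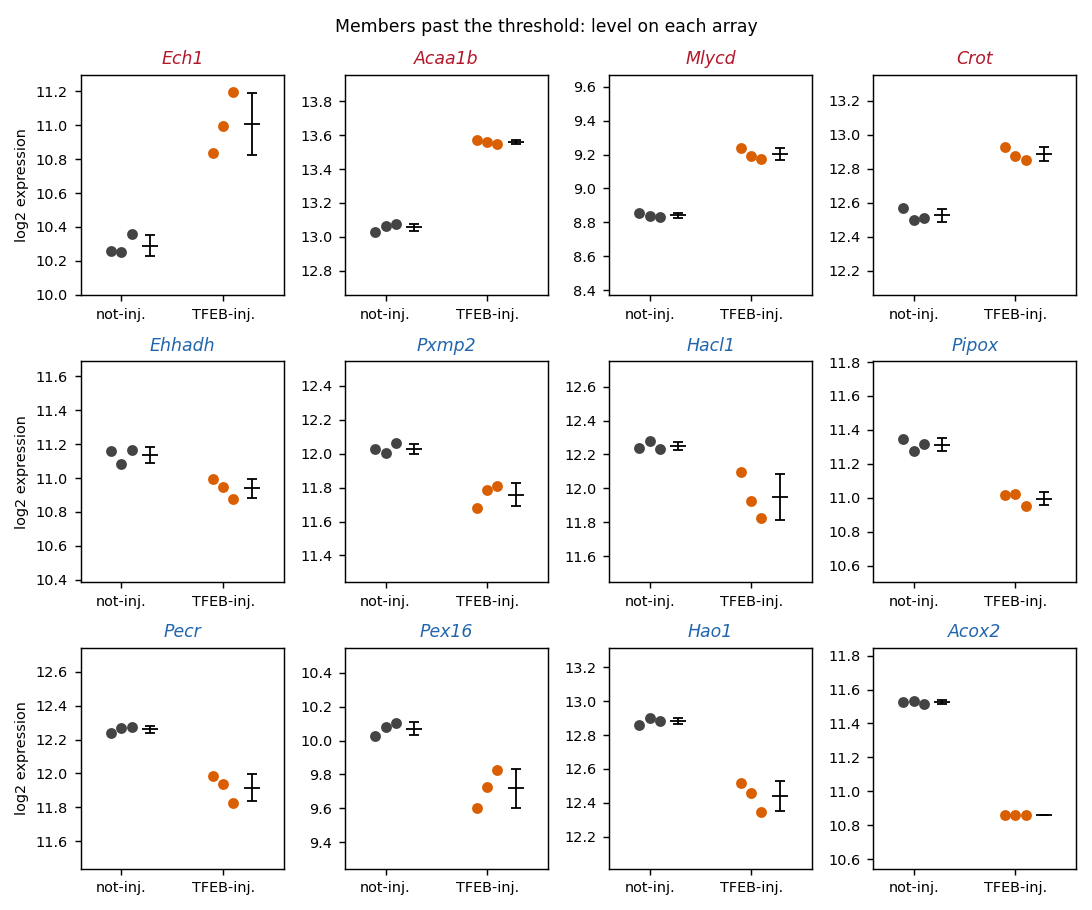
Each panel shows the log2 expression level of 1 member that passed the threshold on every array, with grey points for not-injected and orange points for TFEB-injected mice, and a bar for the mean and SD of the 3 arrays beside them; all panels span the same log2 range. Ech1, Acaa1b, Mlycd and Crot (red names) lie higher in all 3 injected mice, and the other 8 (blue names) lie lower in all 3.

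Among 5 genes for auxiliary enzymes, which act on unsaturated or methylated chains, 1 rose and 1 fell. All 5 lay above the median level of all genes, where 27.6% passed, against 17.9% over all genes. Ech1, for the isomerase that shifts double bonds in dienoyl-CoA and works in mitochondria as well as peroxisomes, read 10.26, 10.25 and 10.36 in controls and 10.83, 10.99 and 11.20 in injected mice. The injected arrays were spread more widely (SD 0.18 against 0.06), yet all were above the controls. Ech1 showed the largest rise among the members, 1.64-fold (0.72 ± 0.09 SE; limma, adjusted p = 0.00204).

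Pecr encodes a trans-2-enoyl-CoA reductase that saturates the bond instead. Levels were 12.24, 12.27 and 12.28 without injection and 11.98, 11.94 and 11.83 with it. The groups were apart, and Pecr fell by 0.34 ± 0.05 (limma, adjusted p = 0.00486). A second probe set gave -0.30 ± 0.13 with overlapping groups. Eci2, for an enoyl-CoA isomerase (0.14 ± 0.05), Decr2, for a dienoyl-CoA reductase (0.16 ± 0.09), and Amacr, the racemase that readies branched chains and bile acid precursors (-0.04 ± 0.05), did not pass.

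Both genes for the handling of shortened chains and malonyl-CoA, the only 2 listed for it, rose. Among all genes 17.9% passed the threshold, 9.99% higher. Crot, for the carnitine transferase that prepares medium chains for export to mitochondria, was at 12.57, 12.50 and 12.51 in controls and 12.93, 12.88 and 12.85 in injected mice. Mlycd, for the decarboxylase that removes malonyl-CoA, was at 8.86, 8.84 and 8.83 in controls and 9.24, 9.19 and 9.17 in injected mice. No array of 1 group reached into the other in either gene, and both rose by 0.36 on the log2 scale, or 1.28-fold (SE 0.05 for Crot and 0.04 for Mlycd; limma, adjusted p = 0.00236 and 0.00168). Mlycd protein is also found outside peroxisomes.

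Alpha-oxidation shortens phytanic acid, a methyl-branched fatty acid from the diet. Hacl1, for the lyase that splits off the carbon, read 12.24, 12.28 and 12.23 in controls and 12.09, 11.92 and 11.82 in injected mice. All injected values were lower, by unequal amounts, and Hacl1 fell by 0.30 ± 0.07 (limma, adjusted p = 0.0263). Leaving out TFEB-injected replicate 2 or any not-injected array ended the call (adjusted p up to 0.0955). Phyh, for the hydroxylase before it, gave -0.19 ± 0.06, with groups that did not overlap (adjusted p = 0.0651). In the ether lipid branch, Gnpat, for the acyltransferase of the first step, was at 8.58 ± 0.05 (SD, n = 3) in both groups (95% confidence interval of the difference -0.11 to 0.12).

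All 5 measured oxidase genes had negative estimates, and 2 of them passed. Over all 12393 genes, 6750 estimates were negative, and 17.9% passed, 7.92% lower. The estimate of Hao2 was only -0.01, at a low signal. Hao1, for the glycolate oxidase that makes glyoxylate, read 12.86, 12.90 and 12.88 in controls and 12.52, 12.46 and 12.35 in injected mice. The controls were tightly grouped and all injected values lower, and Hao1 fell by 0.44 ± 0.06, or 1.36-fold (limma, adjusted p = 0.00198). Pipox, for the oxidase of sarcosine and pipecolic acid, read 11.35, 11.27 and 11.32 against 11.01, 11.02 and 10.95. It fell by 0.32 ± 0.05 (adjusted p = 0.00383), again without overlap.

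Uox, for urate oxidase, read 14.10 ± 0.0047 (SD, n = 3) in controls and 13.94 ± 0.05 in injected mice, just outside the threshold (-0.16 ± 0.05 SE; limma, adjusted p = 0.0518). Dao, for D-amino acid oxidase, stood equally near it (-0.19 ± 0.06; adjusted p = 0.0520) at a low signal of 5.81 ± 0.04 and 5.61 ± 0.08. Hao2, for a hydroxyacid oxidase, read 4.25 ± 0.09 and 4.24 ± 0.05 (-0.01 ± 0.06), close to the lower end of the array's values.

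Membrane and epoxide genes completed the enzymes. Pxmp2, for a channel-forming protein of the peroxisomal membrane, read 12.03, 12.00 and 12.06 in controls and 11.68, 11.79 and 11.81 in injected mice. It was lower in all 3 and fell by 0.27 ± 0.05 (limma, adjusted p = 0.0117). Pxmp4, for a further membrane protein (0.14 ± 0.05, limma adjusted p = 0.105), and Ephx2, for soluble epoxide hydrolase (0.18 ± 0.05, adjusted p = 0.0551), had positive estimates. Their groups did not overlap, but they did not pass.

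**Figure D3:**
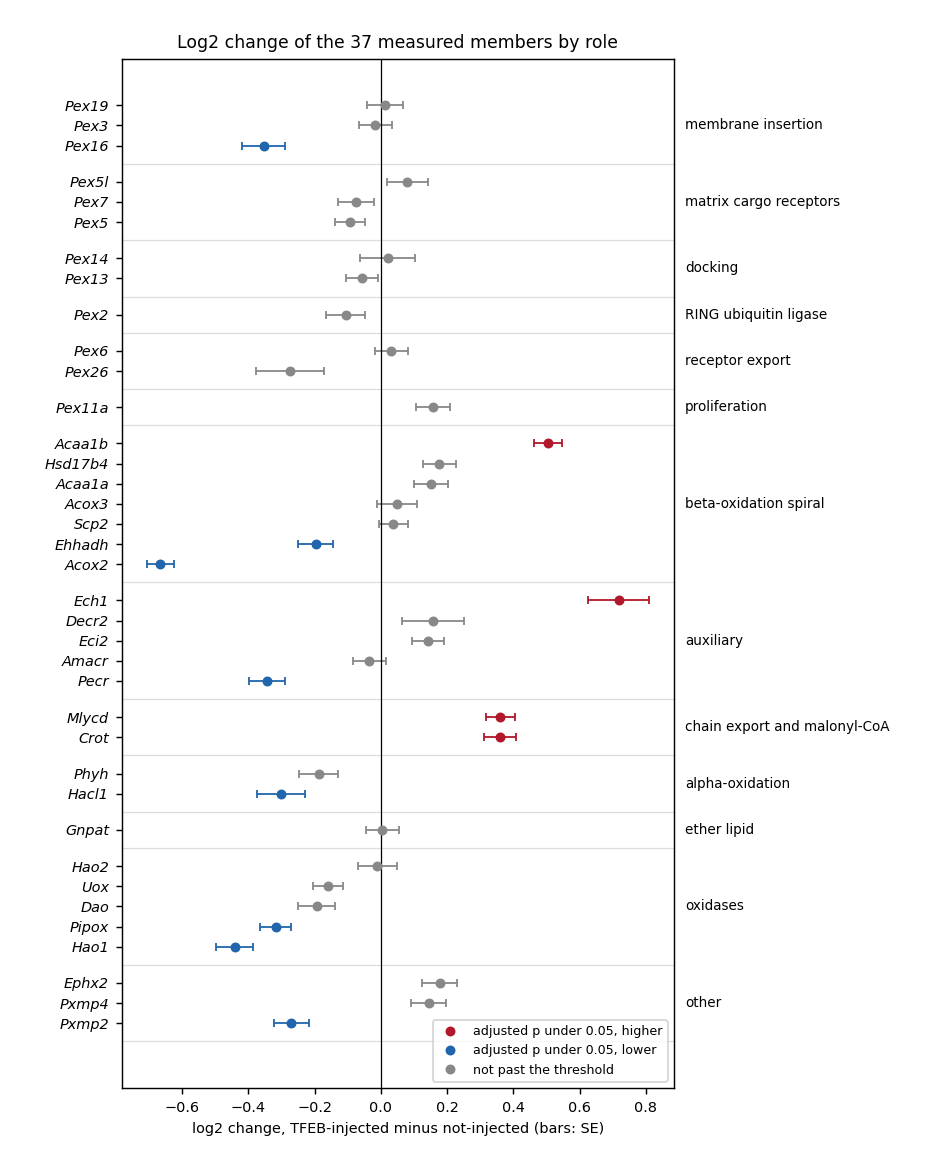
Log2 change of each of the 37 measured members, grouped by role, with points for the estimate and bars for its SE; red and blue mark members higher or lower with an adjusted p under 0.05 and grey the rest. The peroxin groups at the top hold 1 coloured point, Pex16, while the enzyme groups below hold 4 red and 7 blue points.

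Among the peroxins, Pex16 was the 1 that passed. It takes part in placing membrane proteins in the peroxisome together with Pex3 and Pex19. Pex16 read 10.03, 10.08 and 10.10 in controls and 9.60, 9.73 and 9.83 in injected mice. All injected values were lower, and it fell by 0.35 ± 0.07 (limma, adjusted p = 0.00981). Its second probe set, at 6.79 ± 0.12 (SD, n = 3) and 6.78 ± 0.08, gave -0.01 ± 0.07, and the mean of both ended the call (-0.18 ± 0.06; adjusted p = 0.0771). In the lead probe sets its partners Pex3 (-0.02 ± 0.05) and Pex19 (0.01 ± 0.06) had changes smaller than their errors. A second Pex3 probe set, whose groups did not overlap, gave -0.12 ± 0.05 (adjusted p = 0.185).

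No gene of the import machinery passed the threshold. With so few genes, and 17.9% passing over all genes, this absence says little. Pex5, the receptor for matrix enzymes that end in the common C-terminal signal, read 9.41, 9.41 and 9.46 in controls and 9.36, 9.35 and 9.28 in injected mice. The groups lay just apart, with a change of -0.09 ± 0.05 (limma, adjusted p = 0.214; 95% confidence interval -0.20 to 0.01). A second Pex5 probe set gave -0.14 ± 0.05, also without overlap (adjusted p = 0.0900). Pex7, the receptor for the N-terminal signal of the Acaa1 thiolases, had overlapping groups in its lead probe set (-0.08 ± 0.05). So did the lead probe sets of the docking proteins Pex13 (-0.06 ± 0.05) and Pex14 (0.02 ± 0.08) and of the ubiquitin ligase subunit Pex2 (-0.11 ± 0.06). A second Pex13 probe set gave a larger estimate, -0.22 ± 0.08, with groups apart (adjusted p = 0.102). Pex5l, a relative of Pex5 best known from brain, read 4.86 ± 0.07 (SD, n = 3) and 4.94 ± 0.09.

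The export step, which pulls the used receptor out of the membrane, is served by Pex6 and its membrane anchor Pex26. Pex6 gave 0.03 ± 0.05 in its lead probe set; of 4 further ones 1 rose (0.23 ± 0.05; limma, adjusted p = 0.0272 over all probe sets) and 1 had a negative estimate (-0.19). Pex26 read 8.67, 8.64 and 8.65 in controls and 8.54, 8.46 and 8.13 in injected mice, where TFEB-injected replicate 3 stood below the other two. Its change of -0.27 ± 0.10 did not pass (adjusted p = 0.112). Without TFEB-injected replicate 1 it did, at -0.36 ± 0.10 (adjusted p = 0.0493), and the count of called peroxins was then 2. Without TFEB-injected replicate 3 its change was -0.15 ± 0.05 (adjusted p = 0.0779).

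Pex11a drives elongation and division of peroxisomes and is a classical PPAR-alpha target. Its lead probe set read 9.84, 9.92 and 9.92 in controls and 9.98, 10.08 and 10.07 in injected mice. Every injected value was higher by a small step, and the change of 0.16 ± 0.05 did not pass (limma, adjusted p = 0.0788; 95% confidence interval 0.04 to 0.28). The second probe set gave 9.84 ± 0.05 (SD, n = 3) and 10.06 ± 0.04 and rose by 0.22 ± 0.05 (adjusted p = 0.0222 over all probe sets). The call for Pex11a thus depended on the probe set.

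Over all 37 members, the groups of arrays did not overlap in 23, which included all 12 that passed; over all genes they did not overlap in 37.1%. The injected mice varied more than the controls in 28 of 37 members (median SD 0.07 against 0.04), compared with 7343 of all 12393 genes (0.08 against 0.06). Of the 11 members with further probe sets on the array, 3 (Pex6, Pex19 and Scp2) had a further probe set of opposite sign.

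**Figure D4:**
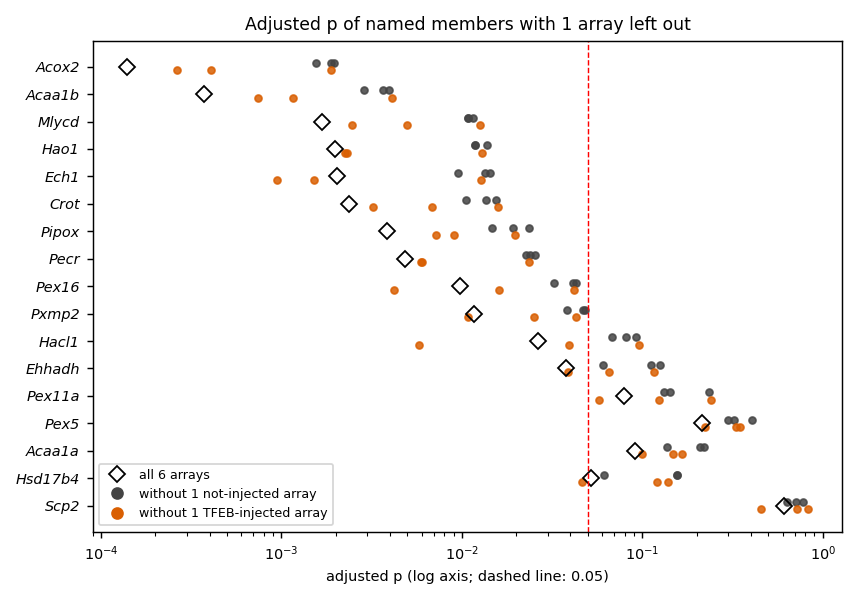
Adjusted p (log axis) of the members named by rule with all 6 arrays (open diamonds) and with 1 array left out, in grey for not-injected and orange for TFEB-injected arrays; the dashed line is 0.05. Points of the first 10 genes, Acox2 to Pxmp2, stay left of the line with any 1 array left out, while those of Hacl1 and Ehhadh fall on both sides.

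Other genes listed as peroxisomal, outside the set, also went in both directions. Of 32 measured among 38, 5 rose and 8 fell, with a median of -0.08. The share past the threshold was 40.6%, against 17.9% over all genes (9.99% higher and 7.92% lower, median -0.01). Of the 32, 26 lay above the median level of all genes, where 27.6% of genes passed. Hsdl2, for a peroxisomal dehydrogenase-like protein, rose from 9.60 ± 0.04 (SD, n = 3) to 10.24 ± 0.06 (0.64 ± 0.05 SE; limma, adjusted p = 2.90e-04). Mff, for a receptor of the fission machinery shared by mitochondria and peroxisomes, rose by 0.36 ± 0.05, while its partners Fis1 (0.00 ± 0.05) and Dnm1l (0.07 ± 0.05), named after their values were seen, did not pass; a further Dnm1l probe set rose by 0.20. Mpv17, for a membrane protein related to Pxmp2 but best known from mitochondria, rose by 0.44 ± 0.07.

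The cofactor carrier Slc25a17 fell by 0.37 ± 0.05 and the thioesterase gene Acot3, whose probe set can detect related genes, by 0.48 ± 0.08 (limma, adjusted p = 0.00206 and 0.00622). Agxt, for the aminotransferase that disposes of the glyoxylate made by Hao1, went from 12.07 ± 0.03 to 11.72 ± 0.07 (SD, n = 3) and fell by 0.35 ± 0.05 (adjusted p = 0.00363). Abcd3, for the transporter that admits branched and dicarboxylic acyl groups, fell by 0.31 ± 0.06 (adjusted p = 0.0100). Cat, for catalase, which removes the hydrogen peroxide that the oxidases form, was at 13.96 ± 0.03 and 13.84 ± 0.02, a change of -0.12 ± 0.04 that did not pass (adjusted p = 0.112; 95% confidence interval -0.22 to -0.02).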

How the data were processed

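Total liver RNA of 6 mice was hybridised to 1 array each. Per the submitters' processing notes, the authors processed the arrays by RMA with affy (background correction, quantile normalization, 1 summary per probe set), with no version stated in the notes used here. What they deposited are log2 levels from 3.08 to 15.20. Quantile normalization hides overall shifts in RNA content, and RMA compresses changes at low levels.

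Groups and replicate numbers came from the labels. Of 22690 probe sets, 64 were controls and 20380 others had 1 gene symbol, and the one with the highest mean over the 6 arrays stood for each of 12393 genes. The groups were compared by limma 3.58.1 under R 4.3.3 (functions lmFit and eBayes). It was run with Benjamini-Hochberg adjustment over all genes, a threshold of 0.05 and 95% confidence intervals from its moderated spread; the script was tested on simulated data. The members, lists, roles and named genes were chosen with earlier results of these data known. Values on all arrays are printed for every member past the threshold and for Pex11a, Pex5, Ehhadh, Acaa1a, Hsd17b4 and Scp2; Pex26 was added after its values were seen. Of the other peroxisomal genes, Cat, Abcd3 and the 3 with the smallest p in each direction are named. Probe sets were also fitted one by one over all probe sets. Promoter stretches and motif searches used RefSeq's table for GRCm38.p6, with the first start site listed for a gene; AGGTCA alone was added after the other searches. The number of arrays limits the precision. Plots were made in Python 3.11.15 using matplotlib 3.10.9.

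The alternatives tried were array weights, cyclic loess, median centring, averaging all probe sets of a gene, dropping _x_at and _s_at probe sets, dropping genes under the median level, a robust prior with an intensity trend, blocking on replicate number and omitting each array in turn.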

Additional observations from a re-analysis of the deposited data

How the results depend on the processing

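In the comparison as reported 11 of 25 enzymes, 1 of 12 peroxins and 17.9% of all genes were called. Dropping genes under the median level gave 18 of 22, 2 of 11 and 36.5%. Array weights gave 19 of 25, 3 of 12 and 33.2%, and an intensity trend with a robust prior 15 of 25, 2 of 12 and 20.3%, so the share over all genes went up too under each. All 11 enzyme calls were among those passing under these settings. With 1 array left out, enzyme calls ranged from 9 to 13, peroxin calls from 1 to 2 and the share of all genes from 9.92% to 19.4%, and the other peroxisomal genes gave 10 to 12 against 13. With probe sets averaged per gene the 1 called peroxin was Pex11a in place of Pex16, and Scp2 turned to -0.10. Acox2, Acaa1b, Mlycd, Hao1, Ech1, Crot, Pipox, Pecr and Pxmp2 kept sign and call under all 14 alternatives. The cause of the other differences was not tested.

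No pairing by replicate number was seen: deviations of same-numbered arrays from their group means correlated at 0.01, -0.13 and -0.11. Those of differently numbered arrays correlated at -0.04 to 0.16. With 3 arrays per group, whose deviations are tied to one another, this check cannot settle whether the arrays were paired. With the replicate number as a block, 10 enzymes, 1 peroxin and 12.4% of all genes passed; Ehhadh lost its call (adjusted p = 0.0911).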
